A study of Rattus norvegicus with 24 samples.

Results

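The 6 genes described here carry and answer the glucocorticoid stress signal. They were taken by their Ensembl identifiers from the 32883 genes of each table. The choice was by name and not by a rule on measured values, though earlier results of these data were known. The genes are Nr3c1 (ENSRNOG00000014096), Nr3c2 (ENSRNOG00000034007), Fkbp5 (ENSRNOG00000022523), Sgk1 (ENSRNOG00000011815), Crh (ENSRNOG00000012703) and Crhr1 (ENSRNOG00000004900). The tables themselves pair no identifier with a name, so these pairings come with the list of genes. RNA came from the medial prefrontal cortex of both hemispheres of Sprague Dawley rats at postnatal day 45. The rats had been born after their mothers' labour was induced with oxytocin, or after saline as the control. The 24 libraries form 4 labelled groups of 6, namely saline males, oxytocin males, saline females and oxytocin females.

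Groups carry the word "labelled" throughout, because each of the 24 deposited files bears a name with the opposite sex and the opposite treatment to its sample's title. Were the file names right, the treatment difference given for labelled males would belong to females and change sign. That for labelled females would belong to males and change sign. The difference between the sexes would also change sign, while the interaction of sex and treatment would keep its sign. The labels name neither animals nor litters, so each library was taken as 1 animal and littermates may count separately. The libraries held 15.9 to 24.3 M estimated reads. Labelled oxytocin females were shallower than labelled saline females (17.4 ± 0.888 against 20.2 ± 2.18 M, SD, n = 6 each). Markers of cortical cell types and of neighbouring tissue could not be examined without gene names, so the tissue label was not checked against expression.

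Glucocorticoids released by the adrenal gland reach the brain and bind a pair of nuclear receptors. The mineralocorticoid receptor, encoded by Nr3c2, binds them with high affinity, and the glucocorticoid receptor, encoded by Nr3c1, is occupied mainly when their level is high. The occupied glucocorticoid receptor raises transcription of target genes. Among these are Fkbp5, a cochaperone that lowers the receptor's own affinity for hormone, and Sgk1, a protein kinase that regulates ion channels and transporters. Crh encodes corticotropin-releasing hormone, the peptide that starts the hormonal stress response in the hypothalamus and is made in cortex mainly by interneurons. Crhr1 encodes its main receptor in forebrain.

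Sgk1 has the largest treatment difference within a labelled sex and the widest spread below, and 3 annotated start windows. RefSeq places them on the reverse strand of chromosome 1 of the assembly GRCr8, which is a later assembly than the Rnor_6.0 named in the submitters' processing notes. They are shown 5′ to 3′, from 250 bases before to 50 after each annotated start, with the TATA box (TATAAA on either strand) in capitals.
Sgk1 window 1, chr1:24807182-24807481: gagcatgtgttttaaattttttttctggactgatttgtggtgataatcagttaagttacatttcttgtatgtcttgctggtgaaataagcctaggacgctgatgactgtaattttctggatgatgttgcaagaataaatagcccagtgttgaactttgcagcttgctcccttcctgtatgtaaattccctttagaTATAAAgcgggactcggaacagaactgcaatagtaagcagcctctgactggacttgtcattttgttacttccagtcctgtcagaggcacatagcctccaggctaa
Sgk1 window 2, chr1:24805521-24805820: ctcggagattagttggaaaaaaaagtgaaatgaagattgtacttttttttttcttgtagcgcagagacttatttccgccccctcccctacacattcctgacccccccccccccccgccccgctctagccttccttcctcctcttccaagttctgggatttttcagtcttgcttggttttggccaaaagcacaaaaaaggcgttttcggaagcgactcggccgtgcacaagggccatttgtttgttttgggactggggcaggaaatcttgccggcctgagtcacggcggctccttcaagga
Sgk1 window 3, chr1:24804782-24805081: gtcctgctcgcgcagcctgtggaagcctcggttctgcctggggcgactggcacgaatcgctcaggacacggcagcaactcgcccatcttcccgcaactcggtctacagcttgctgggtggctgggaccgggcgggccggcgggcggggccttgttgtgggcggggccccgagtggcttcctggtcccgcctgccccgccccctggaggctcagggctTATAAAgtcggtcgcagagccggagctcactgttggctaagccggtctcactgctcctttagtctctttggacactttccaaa

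The first window has its TATA box at bases −55 to −50 relative to the annotated start, and the third at −33 to −28. The second has none. A TATA box by these letters occurred in 14.2% of the 33469 windows of this length in the table. The windows also differ in base composition, with 40.7%, 51.7% and 66.0% G and C. The 6-base core of the glucocorticoid response element (TGTTCT, or AGAACA on the other strand) was searched in all 8 windows that the table holds for Nr3c1, Fkbp5, Sgk1 and Crhr1. It occurred in 0 of them, against 20.7% of all windows. The 8 are not separate sequences, since the 2 windows of Crhr1 share 283 of their 300 bases. The complete inverted repeat, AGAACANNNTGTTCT, which contains that core on both strands, was found in 5 windows of the table. It was in 0 of these 8, as it had to be where the core is absent. Sequence outside the windows was not searched. The table has no entry for Nr3c2 and Crh.

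All 6 genes were expressed in every library, with 77 estimated reads or more, and all 6 passed the filter on low counts. Per effective length (as deposited TPM, which divide reads by the deposited effective length and scale every library to the same sum), Sgk1 and Nr3c1 led the set. The effective length of Nr3c1 was 3530 to 3916 bases against a length of 5078, and that of Fkbp5 3285 to 3374 against 3387. The order of Nr3c1 with Sgk1 and with Fkbp5 within libraries, and the ratios to Nr3c1 below, therefore depend on this correction. Sgk1 stood at 33.5 ± 6.68 TPM and Nr3c1 at 28.9 ± 1.87 TPM (SD, n = 24). This pair did not separate beyond its spread, since Sgk1 exceeded Nr3c1 in 18 of 24 libraries.

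Fkbp5 followed at 19.7 ± 2.50 TPM, below Nr3c1 in 24 of 24 libraries. Crhr1 stood at 14.5 ± 2.36 TPM and lay below Fkbp5 in 22 libraries. Nr3c2 had 10.9 ± 1.18 TPM, below Crhr1 in 22 libraries, and Crh was lowest at 8.94 ± 1.11 TPM, below Nr3c2 in 23. Neighbours below Nr3c1 thus kept their order in most libraries, though their ranges overlapped for every pair other than Nr3c1 and Fkbp5. Among the 14930 genes tested, 70.4% had a lower mean TPM than Sgk1 and 38.6% a lower one than Crh.

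The ratio of the 2 receptors varied little. Nr3c1 had 2.69 ± 0.256 times the TPM of Nr3c2 (SD, n = 24), from 2.32 to 3.33 across libraries. By labelled group this ratio was 2.68 ± 0.333 in saline males, 2.56 ± 0.142 in oxytocin males, 2.90 ± 0.226 in saline females and 2.61 ± 0.204 in oxytocin females (SD, n = 6 each). The ranges overlapped in both labelled sexes.

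Treatment and labelled sex were compared with edgeR's quasi-likelihood test over all 14930 tested genes. The threshold for a call was 0.05 on the p adjusted by Benjamini and Hochberg's method. None of the 6 genes was called in any comparison, in edgeR, DESeq2 or limma. In labelled males 0 of 6 were called against 0.161% of all tested genes, a share that was 0 without any 1 of 8 male libraries, and in labelled females 0 of 6 against 0.00670%. Averaged over the labelled sexes it was 0 of 6 against 0.362%, for the interaction 0 of 6 against 0%, and between labelled males and females 0 of 6 against 0.228%.

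At an unadjusted edgeR p under 0.05 stood Sgk1 and Crhr1 in labelled males (2 of 6, against 11.2% of all tested genes) and Nr3c2 in labelled females (1 of 6, against 12.4%). On the average it was Nr3c2 and Crhr1 (2 of 6, against 16.0%), for the interaction Sgk1 (1 of 6, against 7.29%), and between the labelled sexes Nr3c1 and Fkbp5 (2 of 6, against 9.99%). With 6 genes, these counts cannot be set apart from the background shares. Oxytocin and saline libraries overlapped for every gene, so that 0 of 6 were without overlap in labelled males (1.19% of all tested genes) and 0 of 6 in labelled females (0.730%).

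**Figure D1:**
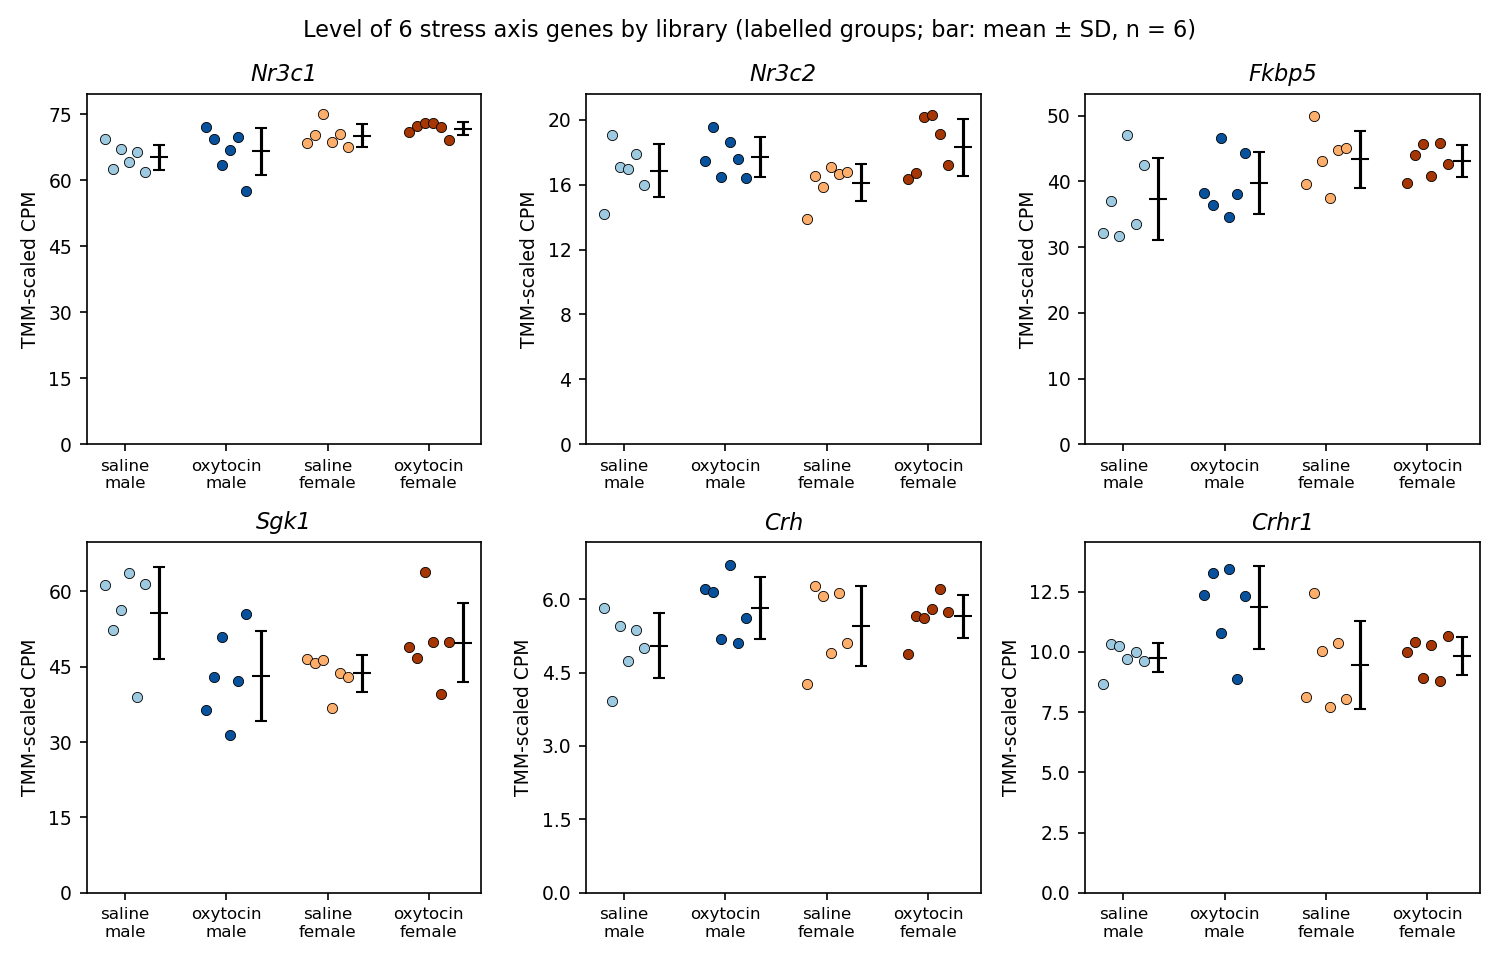
Level of each gene in every library, in TMM-scaled CPM on axes that start at 0, by labelled group (points: libraries; bars: mean ± SD, n = 6). Nr3c1 lay between 57.6 and 75.1 CPM in all 24 libraries, whereas Sgk1 ran from 31.4 to 63.9 CPM.

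Nr3c1, the glucocorticoid receptor, was the steadiest of the set. In labelled males it ran from 61.9 to 69.3 CPM in saline libraries (median 65.3) and from 57.6 to 72.2 CPM in oxytocin libraries (median 68.1). CPM are reads of a gene relative to the TMM-scaled library total, and compare 1 gene between libraries. In labelled females it ran from 67.7 to 75.1 CPM in saline (median 69.5) and from 69.1 to 73.1 CPM in oxytocin libraries (median 72.2). Treatment groups overlapped in both labelled sexes.

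The log2 fold change of Nr3c1 with oxytocin was 0.03 in labelled males (95% interval −0.06 to 0.12, edgeR adjusted p = 0.879) and 0.03 in labelled females (−0.06 to 0.12, adjusted p = 0.807). Both intervals end at 0.12. Between the labelled sexes Nr3c1 was lower in males, by a log2 fold change of −0.11 (SE 0.03, edgeR adjusted p = 0.176). It did not pass the adjustment.

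Nr3c2, the mineralocorticoid receptor, lay at 14.2 to 19.0 CPM in saline males (median 17.0) and 16.4 to 19.5 CPM in oxytocin males (median 17.5), by label. In labelled females it lay at 13.9 to 17.1 CPM in saline libraries (median 16.6) and 16.3 to 20.3 CPM in oxytocin libraries (median 18.2). Of the 6 oxytocin libraries labelled female, 4 exceeded every saline library. The log2 fold change was 0.18 in labelled females (SE 0.07, edgeR adjusted p = 0.319) and 0.07 in labelled males (SE 0.07, adjusted p = 0.803). Their difference was not called (interaction −0.12, SE 0.10, adjusted p = 0.831). In a bulk sample, fewer cells that express a gene and less of its RNA per cell cannot be told apart, here and for the other genes.

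Fkbp5, the receptor's cochaperone, showed no treatment difference that exceeded its spread. By label it ran from 31.7 to 47.1 CPM in saline males (median 35.3) and from 34.6 to 46.6 CPM in oxytocin males (median 38.1). In females the ranges were 37.5 to 49.9 CPM in saline (median 44.0) and 39.8 to 45.8 CPM in oxytocin libraries (median 43.3). Both female medians lay above both male medians, while the ranges overlapped. The log2 fold change with oxytocin was 0.09 in labelled males (SE 0.09, edgeR adjusted p = 0.778) and −0.01 in labelled females (SE 0.09, adjusted p = 0.982). Labelled males were lower than labelled females by a log2 fold change of −0.17 (SE 0.06, edgeR adjusted p = 0.355), which was not called.

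Sgk1, the kinase gene, had the largest treatment difference of the set within a labelled sex, and its sign was not the same in both. In labelled males it ran from 38.9 to 63.7 CPM in saline libraries (median 58.8) and from 31.4 to 55.6 CPM in oxytocin libraries (median 42.6). All 6 oxytocin males lay below the saline median, and 4 saline males lay above every oxytocin male. In labelled females Sgk1 ran from 36.8 to 46.6 CPM in saline libraries (median 44.7) and from 39.5 to 63.9 CPM in oxytocin libraries (median 49.4). There 5 of 6 oxytocin libraries lay above every saline library, and 1 lay among them.

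The log2 fold change of Sgk1 was −0.36 in labelled males (SE 0.13, edgeR adjusted p = 0.261) and 0.19 in labelled females (SE 0.13, adjusted p = 0.567). The interaction, which tests the difference between these values, was −0.55 (SE 0.18, 95% interval −0.93 to −0.17). Its unadjusted edgeR p of 0.00631 ranked 173rd of 14930 genes, and its adjusted p was 0.532. Averaged over the labelled sexes the difference was −0.09 (SE 0.09, edgeR adjusted p = 0.692). That is smaller than the averages of Crhr1 (0.16, adjusted p = 0.284), Crh (0.13, adjusted p = 0.425) and Nr3c2 (0.12, adjusted p = 0.224), none of which was called.

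**Figure D2:**
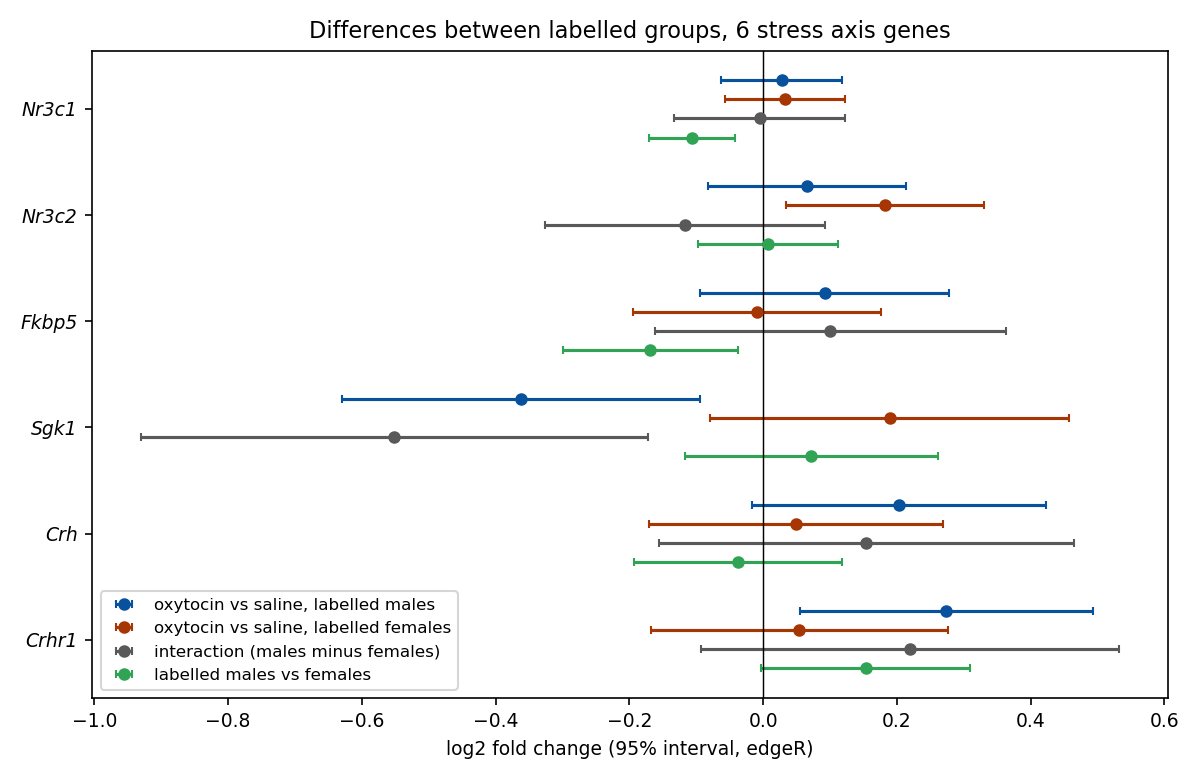
Log2 fold changes of the 6 genes (x axis; points with 95% intervals from edgeR) for oxytocin against saline in each labelled sex, for the interaction and for labelled males against females. Sgk1 lies at −0.36 in labelled males and 0.19 in labelled females, and no gene passed the adjustment in any comparison.

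Crh, the releasing hormone gene, was the scarcest, with 77 to 151 estimated reads per library. By label it lay at 3.93 to 5.82 CPM in saline males, 5.11 to 6.69 CPM in oxytocin males, 4.27 to 6.28 CPM in saline females and 4.87 to 6.21 CPM in oxytocin females. In males 3 oxytocin libraries exceeded every saline library and 3 saline libraries lay below every oxytocin library. The log2 fold change was 0.20 in labelled males (SE 0.11, edgeR adjusted p = 0.502) and 0.05 in labelled females (SE 0.11, adjusted p = 0.896).

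Crhr1, the receptor gene, lay at 8.65 to 10.3 CPM in saline males (median 9.86) and 8.88 to 13.4 CPM in oxytocin males (median 12.3), by label. Of the oxytocin males, 5 of 6 exceeded every saline male, and the remaining 1 lay above only the lowest of them. In labelled females the ranges were 7.70 to 12.4 CPM in saline (median 9.09) and 8.80 to 10.7 CPM in oxytocin libraries (median 10.1), with the oxytocin range inside the saline range. The log2 fold change was 0.27 in labelled males (SE 0.11, edgeR adjusted p = 0.306) and 0.05 in labelled females (SE 0.11, adjusted p = 0.885). The interaction was 0.22 (SE 0.15, adjusted p = 0.793). Per effective length, Crhr1 had 1.62 ± 0.203 times the TPM of Crh (SD, n = 24), and this ratio was 1.67 ± 0.255 in saline and 1.76 ± 0.156 in oxytocin libraries labelled male (SD, n = 6 each).

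The genes differed in how far animals of 1 group stood apart. Sgk1 had a biological coefficient of variation (the spread left after counting error, from edgeR) of 15.3%, against a median of 6.11% for the 500 tested genes nearest to it in mean level. Of those neighbours, 95.8% varied less. For Fkbp5 the coefficient was 10.6% against 6.58%, with 84.8% of its neighbours varying less.

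The corticosteroid receptors did not stand out in this way. Nr3c1 had a coefficient of 5.21% against 5.80% in its neighbours, 33.2% of which varied less, and Nr3c2 had 7.62% against 7.95%, with 44.0% varying less. Crhr1 stood at 11.9% against 9.88%, with 72.0% of its neighbours varying less. Crh had 10.3% against 12.2%, with 27.4% varying less, and was close to its counting error of 9.75%, so its reads set much of the precision. Pooled over the groups, Sgk1, Fkbp5 and Crhr1 thus varied more than most genes of like level, and Nr3c1, Nr3c2 and Crh did not. This is a description of ranks, with no test. Single groups differed in their SD of log2 CPM. For Crhr1 it ran from 0.0924 in saline males to 0.269 in saline females (pooled median of neighbours 0.162). For Fkbp5 it ran from 0.0828 in oxytocin females to 0.232 in saline males (neighbours 0.0997). For Nr3c1 it ran from 0.0304 in oxytocin females to 0.118 in oxytocin males (neighbours 0.0834). For Sgk1 it ran from 0.128 in saline females to 0.303 in oxytocin males (neighbours 0.0913).

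**Figure D3:**
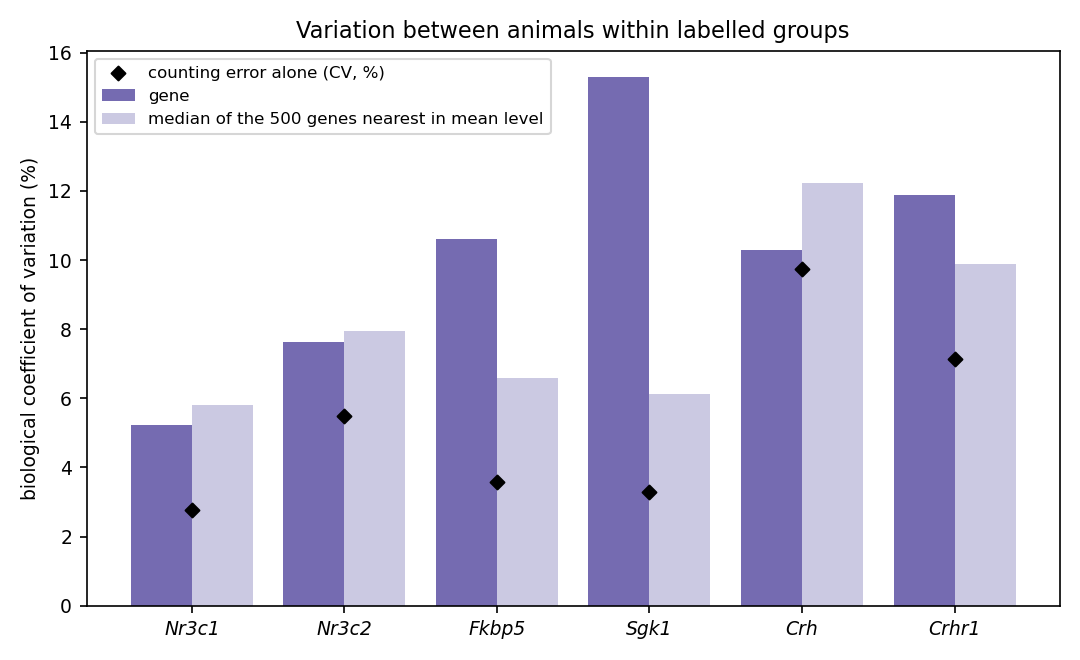
Biological coefficient of variation within labelled groups for each gene (dark bars) beside the median of the 500 genes nearest in mean level (pale bars), in percent. Diamonds give counting error alone; Sgk1 stands at 15.3% and Nr3c1 at 5.21%.

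Co-variation between animals was measured on log2 CPM after the mean of the labelled group had been subtracted, over 24 libraries and 15 pairs of genes. Permutation p-values come from 100000 permutations of libraries within groups, two-sided, adjusted over the 15 pairs. None of the 15 pairs passed the adjustment, and 3 pairs had an unadjusted p under 0.05 for Pearson's r. Values within single groups of 6 are given as a description and were not stable: 20 of the 60 group values changed sign without the 2 libraries farthest from the median of the first gene.

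Fkbp5 and Sgk1, both induced by the receptor, had the highest Pearson correlation over all 24 libraries, though not the highest rho nor the highest r without the farthest libraries. Pearson's r was 0.52 (permutation p = 0.0206, adjusted p = 0.172) and Spearman's rho 0.43 (permutation p = 0.0580, adjusted p = 0.217, n = 24). Without the 2 libraries farthest from the median of Fkbp5, r was 0.43. Within the labelled groups, n = 6 each, r was 0.87 in oxytocin males, 0.55 in saline females, 0.45 in saline males and 0.00 in oxytocin females. Without the 2 farthest libraries r was −0.83 in saline females and −0.23 in saline males, so no common sign held across the groups. Over all tested genes, 0.596% had a higher positive r with Sgk1 than Fkbp5 did, and 1.19% a higher positive r with Fkbp5 than Sgk1 did. Negative correlations were not counted in these shares.

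The pooled correlations of Nr3c1 with both genes were negative, did not pass the adjustment and were positive in both labelled female groups. The r with Fkbp5 was −0.45 (permutation p = 0.0524, adjusted p = 0.197; rho −0.46, permutation p = 0.0446, adjusted p = 0.217; −0.42 without the 2 farthest libraries). By labelled group r was −0.69 in oxytocin males and −0.73 in saline males, and 0.32 and 0.20 in oxytocin and saline females, n = 6 each. Without the 2 farthest libraries the value was 0.92 in oxytocin males and −0.42 in oxytocin females. On log2 of the deposited TPM, the pooled r of Nr3c1 with Fkbp5 was only −0.12 (permutation test, adjusted p = 0.755). On log2 CPM, the r of Nr3c1 with Sgk1 was −0.33 (permutation p = 0.222, adjusted p = 0.554; rho −0.19, permutation p = 0.426, adjusted p = 0.770). By labelled group it was −0.71 in oxytocin males, −0.11 in saline males, 0.19 in oxytocin females and 0.42 in saline females. That relation rested on few libraries, since r was −0.04 without the 2 libraries farthest from the median of Nr3c1.

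Crh and its receptor gene Crhr1 had an r of 0.49 (permutation p = 0.0345, adjusted p = 0.172) and a rho of 0.52 (permutation p = 0.0266, adjusted p = 0.200, n = 24). Leaving out the 2 libraries farthest from the median of Crh gave 0.58. The groups were split: r was 0.86 in oxytocin males and 0.86 in saline females, but −0.30 in oxytocin females and −0.59 in saline males, n = 6 each. Without the 2 farthest libraries both negative values turned, to 0.68 and 0.85, so the split itself rested on few libraries.

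Crh and Nr3c1 had an r of 0.45 (permutation p = 0.0326, adjusted p = 0.172) and a rho of 0.52 (permutation p = 0.0154, adjusted p = 0.200), with 0.53 without the 2 farthest libraries and group values of 0.23 to 0.79. Without the 2 farthest libraries of a group, r was −0.63 in oxytocin females and −0.35 in oxytocin males. Nr3c2 and Sgk1 stood at −0.33 (permutation p = 0.145, adjusted p = 0.436; rho −0.37, permutation p = 0.0922, adjusted p = 0.277; −0.28 without the 2 farthest). The other 9 pairs lay between −0.22 and 0.19 on log2 CPM. Among them, Nr3c1 with Nr3c2 had an r of 0.59 on log2 of the deposited TPM (permutation test, adjusted p = 0.0518). By the same test on TPM, the adjusted p was also 0.0518 for Nr3c1 with Crh and for Crh with Crhr1. For Fkbp5 with Sgk1 it was 0.0695. Within single groups, 60 exact permutation tests gave 6 unadjusted p-values under 0.05 and 0 after adjustment over the 60 for Pearson's r (smallest adjusted p = 0.450). For Spearman's rho with 6 libraries the smallest exact p is 0.00278, which becomes 0.167 for a lone test among 60. No single group test of rho could therefore pass. Pearson's r can reach a smaller exact p. Correlations of the 6 genes with the log2 library total, taken the same way, lay between −0.12 and 0.14 (n = 24, a description).

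**Figure D4:**
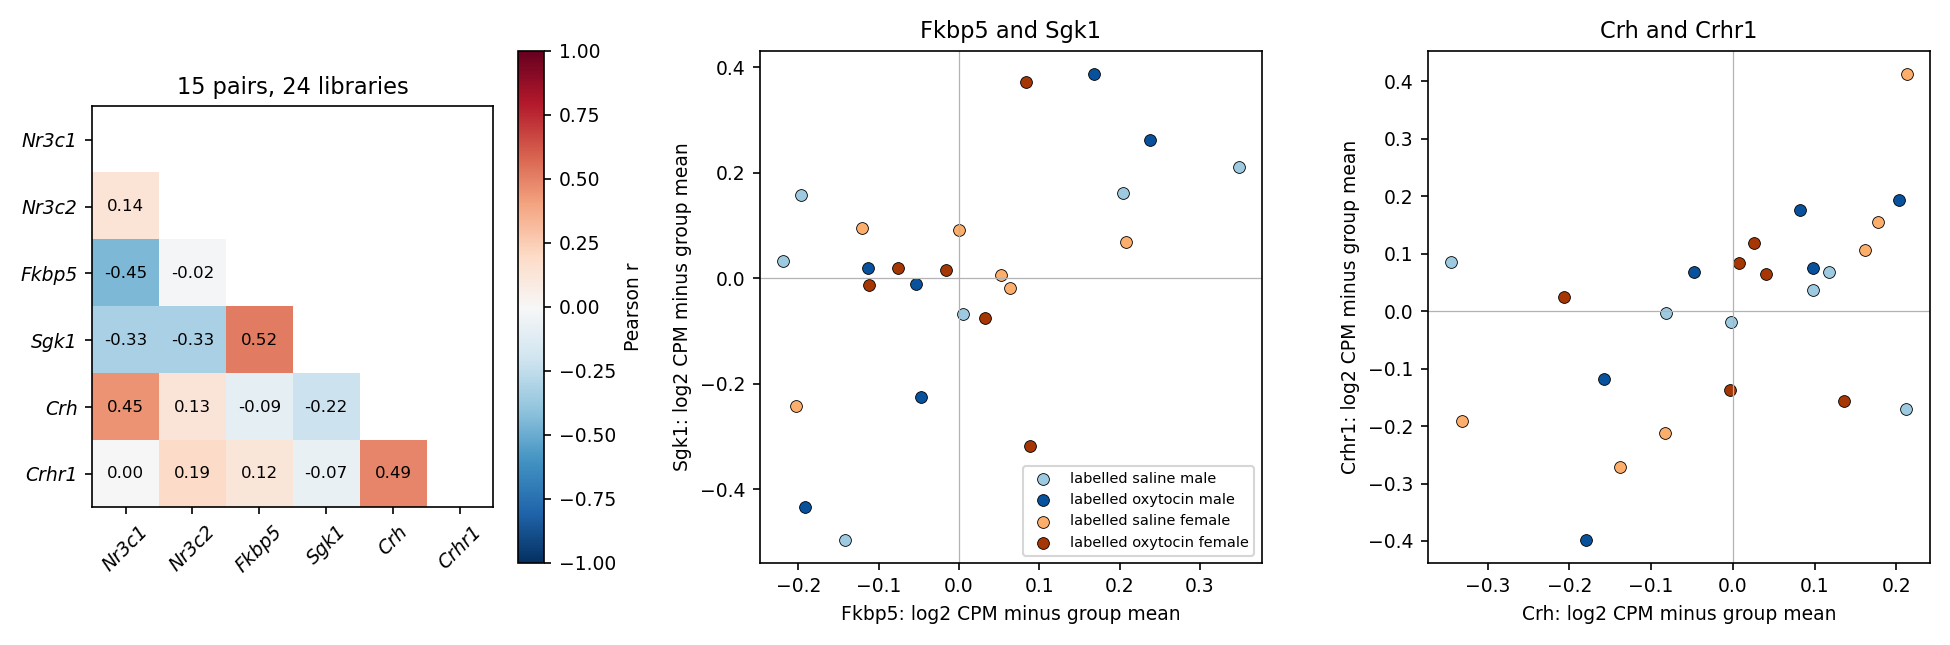
Pearson correlations of the 15 gene pairs over 24 libraries after subtraction of group means (left, colour scale from −1 to 1), and the same deviations in log2 CPM for Fkbp5 with Sgk1 (middle) and Crh with Crhr1 (right), 1 point per library. The 2 pairs plotted have r = 0.52 and r = 0.49, and none of the 15 passed the adjustment.

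The genes most like each member over these 24 libraries, of 11118 genes with a mean of at least 5 CPM, reached an r of 0.83 for Fkbp5 (ENSRNOG00000012475, at 17.5 CPM) and 0.75 for Sgk1 (ENSRNOG00000001216, at 20.8 CPM). The most opposite were at −0.73 for Fkbp5 (ENSRNOG00000018971) and −0.70 for Sgk1 (ENSRNOG00000048050). No name could be given to these identifiers. Such extremes are picked from all genes compared, and the median absolute r was 0.164 for Fkbp5 and 0.135 for Sgk1.

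A further readout of Sgk1 lies in the deposited gene length, which for some genes differs between libraries. Such a length is usually a mean over a gene's transcripts, weighted by their share, though the sources used here do not describe the column. It was constant for 4 of the 6 genes. For Sgk1 it ran from 2506 to 2666 bases and for Crhr1 from 1205 to 1248 bases. Across all tested genes, 3999 of 14930 (26.8%) had a length that varied.

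Libraries with more Sgk1 had a shorter Sgk1 length. The libraries at the ends were an oxytocin male with 31.4 CPM and 2666 bases and a saline male with 61.5 CPM and 2506 bases, by label. After subtraction of group means, Pearson's r between length and log2 CPM was −0.80 (permutation p = 0.000130, adjusted p = 0.00156 over 12 tests) and Spearman's rho −0.65 (permutation p = 0.00185, adjusted p = 0.0155, n = 24). Without the 2 libraries farthest from the median length, r was −0.63. By group r was −0.94 in oxytocin males, −0.89 in saline males, −0.77 in oxytocin females and −0.24 in saline females, n = 6 each. The sign was the same in 4 of 4 groups, but group values were not recomputed without the farthest libraries. In saline males, library 5 lay at 91.7 bases and −0.496 log2 CPM from the group mean, and library 6 at −50.3 bases and 0.161. The other libraries lay between −18.3 and −2.33 bases, and the longest of these, library 4, had the group's highest level (0.212). The saline male value thus rested on few libraries. CPM are not divided by length, but length and level come from the same reads.

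The relation was uncommon among genes of varying length, as a description: 11 of 3999 (0.275%) had an r at or below that of Sgk1, and the median r was −0.01. For Crhr1 the r of length with level was −0.10 (permutation p = 0.645, adjusted p = 0.774; rho −0.12, permutation p = 0.580, adjusted p = 0.739). With the level of Crh, Sgk1 length had an r of 0.55 (permutation p = 0.0136, adjusted p = 0.0817) and a rho of 0.61 (permutation p = 0.00259, adjusted p = 0.0155), with 0.54 without the 2 farthest libraries, so that only the rank measure passed the adjustment. With Fkbp5 its r was −0.24 (permutation p = 0.386, adjusted p = 0.544; rho −0.12, permutation p = 0.616, adjusted p = 0.739). The test of length was chosen after the values had been seen, and which of the Sgk1 transcripts differ cannot be read from the tables, which give genes only.

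The mean Sgk1 length was 2604 ± 40.9 bases in oxytocin and 2556 ± 48.0 bases in saline libraries labelled male (SD, n = 6 each), a difference of 48 bases (p = 0.0931 by a two-sided exact permutation of libraries, 0.255 when adjusted over the 4 lengths compared). In labelled females it was 2587 ± 21.7 and 2577 ± 27.7 bases (p = 0.532 by the same exact permutation, adjusted 0.710). Neither difference passed the test.

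**Figure D5:**
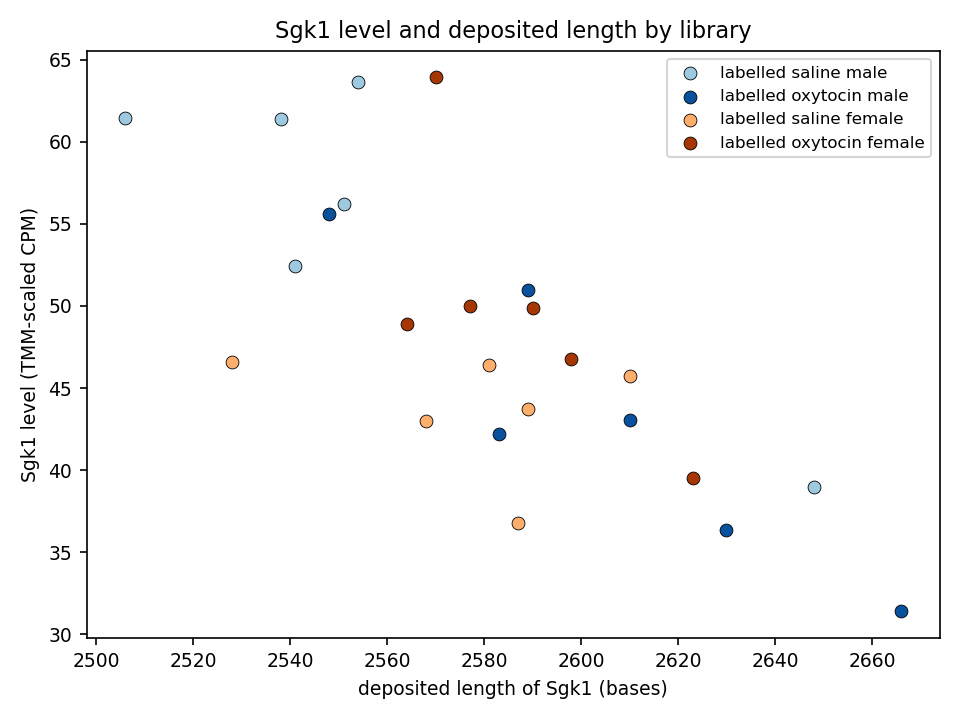
Sgk1 level in TMM-scaled CPM (y axis) against the deposited Sgk1 length in bases (x axis) for 24 libraries, coloured by labelled group; neither axis starts at 0. Levels run from 63.9 CPM down to 31.4 CPM, and the library with the greatest length, 2666 bases, has the lowest level.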

How the data were processed

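Bulk RNA libraries of rat medial prefrontal cortex, selected with oligo-dT per the labels' protocols, were analysed from the authors' tables of 1 row per Ensembl gene. Per the submitters' processing notes, bcl2fastq, DRAGEN and Rnor_6.0 were used; no source used here gives versions, annotation or strand setting. Per the file headers, each table holds length, effective length, TPM and reads. The deposited estimated counts were rounded and tested; the deposited TPM served to compare levels between genes.

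With edgeR 4.0.16 (R 4.3.3), filterByExpr (minimum count 10, minimum total 15) kept 14930 genes, TMM scaled the libraries, and 1 mean per labelled group was fitted by robust quasi-likelihood over 24 libraries, after a test on simulated data. Fold changes are log2 values. SE were derived from the F statistic. log2 CPM used a prior count of 2. Counts give counting precision only, and a count of 0 would allow up to 0.189 CPM. P-values set a difference or correlation against the variation between these libraries. Variation between litters could not be separated from it, since the labels name no litters.

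Members and lists were chosen with earlier results of these data known. The rule was to name all 6 members and, for each, the genes most alike; without names, 4 of those identifiers are printed. The reference table (GRCr8) carries 0 Ensembl IDs, so the lists of glucocorticoid-induced genes, chaperones, steroid cofactors, CRH family, other hormone axis genes, activity-dependent genes and cell type markers could not be tested. Alternatives were RLE size factors, no or a stricter filter (minimum count 50), a replicate block, DESeq2 1.42.0, limma 3.58.1, 1 labelled sex alone, and leaving out each library; for correlations also log2(TPM + 0.1).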

Additional observations from a re-analysis of the deposited data

Results flagged for a closer look

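Among the 24 sets of 6 libraries (6 genes in 4 labelled groups), 1 held a library far from the other 5. For Sgk1, saline female 4 stood at 36.8 CPM, and the next library of its group at 43.0 CPM, a gap of 0.634 of the group's whole range. Chance alone would flag about 1.2 of 24 sets. Without this library the Sgk1 interaction was −0.51 (edgeR adjusted p = 0.485) and the log2 fold change in labelled females 0.14 (edgeR adjusted p = 0.695).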

How the results depend on the processing

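None of the 6 genes was called under any alternative or without any 1 library. The number of all genes called moved far more. In labelled males it was 24, against 9 with a replicate block, 160 in DESeq2, 125 in limma, 116 in the 12 libraries of that sex alone, and 0 to 106 when 1 library was left out. It was 0 without any 1 of 8 libraries (oxytocin male 1, 3 or 4, or saline male 1, 2, 3, 5 or 6), 105 without saline male 4 and 106 without saline female 2. In labelled females it was 1, against 42 in DESeq2, 0 in the 12 libraries alone and 1 to 6 (without saline female 6). On the average it was 54, against 356 in DESeq2, 190 in limma and 9 (without saline male 2) to 334 (without saline female 2). For the interaction it was 0, against 1 with the replicate block, 2 in DESeq2 and 0 without any 1 library. Between the labelled sexes it was 34, against 102 in DESeq2, 70 in limma and 29 to 60 (without saline female 6). The cause was not tested.

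Same-numbered libraries deviated together little if at all (correlations −0.110 to 0.175, means by number 0.00194 to 0.0490). Of 24 libraries, 6 correlated best with their own number. The labels name neither animals nor litters, so whether the numbers pair any by design is not known. With the replicate block the Sgk1 difference in labelled males was −0.37 (edgeR adjusted p = 0.210).

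Without 1 library, the Sgk1 difference in labelled males ran from −0.45 to −0.29 and its interaction from −0.64 to −0.47. Among fold changes, signs turned only for values near 0; of the 60 correlations within groups, 20 turned without the 2 farthest libraries, large values included. In limma, Fkbp5 in labelled females was 0.0169 and the Nr3c1 interaction 0.00272. Without 1 library these ran from −0.0471 to 0.0363 and −0.0294 to 0.0332, Crh in labelled females from −0.0122 to 0.0947, and Nr3c2 between the labelled sexes from −0.0120 to 0.0299. Among pooled correlations, Nr3c1 with Crhr1 was −0.00570 with RLE factors (−0.0464 to 0.154 without 1 library), Nr3c2 with Fkbp5 0.150 on TPM (−0.183 to 0.0566), Fkbp5 with Crh 0.0921 on TPM and 0.0422 without the 2 farthest libraries, and Sgk1 with Crhr1 0.0702 without the 2 farthest (−0.176 to 0.0452). Without 1 library, Nr3c1 with Nr3c2 ran from −0.00547 to 0.328, Nr3c2 with Crh from −0.0803 to 0.368 and Fkbp5 with Crhr1 from −0.0482 to 0.211. On TPM, Nr3c1 with Nr3c2 moved to 0.591 and Nr3c1 with Fkbp5 to −0.117, and neither passed the adjustment. Crh, at 77 to 151 reads, is the gene whose precision depth limits most.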
